A study of Bos taurus with 8 samples.

Results

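Keratins are the intermediate filament proteins of epithelial cells, and EPCAM is the epithelial cell adhesion molecule at the surface of the same cells. The messenger RNA of 9 such genes (KRT4, KRT5, KRT6A, KRT7, KRT8, KRT10, KRT18, KRT19 and EPCAM) was followed in endometrial biopsies of 8 cows. The genes were taken as every noncontrol probe that the array files name by one of these symbols, which gave 23 of 43653 probes. Testing required a signal well above background on 4 or more of the 8 arrays. By that filter 16 of the 23 probes were tested and 7 were not, and each of the 9 genes kept at least 1 tested probe. The cows of the 5 mM group (n = 4) had received methylglyoxal, a small dicarbonyl that cells form during glycolysis and that modifies proteins, in 25 mL per uterine horn on day 1 after standing estrus. The cows of the 0 mM group (n = 4) had received the same volume without methylglyoxal. The horn next to the corpus luteum was biopsied on day 7 in both groups, and the Cy3-labelled RNA of each cow was read on an Agilent one-colour array of its own. Breed and age are not given in the sources used here.

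Keratin filaments are built from pairs of 1 acidic (type I) and 1 basic (type II) chain. Simple epithelia, such as the columnar lining and the glands of the uterus, use the type II chains KRT8 and KRT7 with the type I chains KRT18 and KRT19. Stratified epithelia use other chains: KRT5 in the basal layer, KRT10 in the upper layers of skin, KRT4 in moist mucosae and KRT6A in activated or wounded layers. EPCAM holds the claudin CLDN7 at the lateral membrane of simple epithelia. Stroma, muscle and blood vessels in the same biopsy use the type III filament proteins vimentin and desmin, so keratin and EPCAM RNA in bulk tissue is widely used as a sign of epithelium.

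Each value is a log2 signal from which the log2 of the 75th percentile of its array was subtracted, so that 0 is the level of that percentile and each unit is a 2-fold step. Between 68.3% and 73.3% of noncontrol spots were well above background per array. The 75th percentile was 1032 to 1456 intensity units, and saturated spots numbered 0. Precision is limited by the number of arrays. The array labelled 5 mM replicate 1 stood apart from the other 7. Its weight in limma's array-weight fit was 0.194, against 0.984 to 1.55 for the other 5 mM arrays and 0.835 to 1.69 for the 0 mM arrays. Of 20 measured luminal and glandular epithelial markers outside the 9 genes, 19 were at their lowest on that array, and 11 of 12 smooth muscle markers were at their highest there. Differences between the groups in the limma fit and list medians are therefore given with and without it.

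Probes of related keratins can share stretches of sequence, and the closest pairs among the measured genes are shown because they bear on what a keratin probe reads. Each probe is 60 bases long, positions are on HGSC Btau_3.1, and capitals mark the bases that match in the best ungapped alignment of each pair. The probe of KRT10 lies at chr19:42275010-42275069 on the minus strand, and the second probe of KRT19 lies at chr19:43089461-43089520 on the minus strand. They match at 31 of 44 aligned bases (70.5%).
KRT10: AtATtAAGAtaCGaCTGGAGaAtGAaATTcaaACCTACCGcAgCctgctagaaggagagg
KRT19: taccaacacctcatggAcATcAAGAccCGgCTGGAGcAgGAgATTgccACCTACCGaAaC
The same KRT19 probe matches a probe of its neighbour KRT15, which the array files name KRT13, at 44 of 54 aligned bases (81.5%). The KRT15 probe lies at chr19:43081086-43081145 on the minus strand.
KRT19: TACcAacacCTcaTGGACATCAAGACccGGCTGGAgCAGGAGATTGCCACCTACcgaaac
KRT15: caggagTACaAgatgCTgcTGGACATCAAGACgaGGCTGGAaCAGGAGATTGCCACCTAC
A probe of KRT8 at chr5:30001773-30002266 on the plus strand matches a probe of KRT75 at chr5:30357515-30357923 on the plus strand at 40 of 52 aligned bases (76.9%).
KRT8: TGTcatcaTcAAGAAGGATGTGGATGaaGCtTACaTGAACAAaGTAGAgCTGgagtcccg
KRT75: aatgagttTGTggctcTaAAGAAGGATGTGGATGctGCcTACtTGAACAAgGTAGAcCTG
The KRT75 probe was well above background on 0 arrays. Cross-hybridisation between these probes was not tested.

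KRT8, the type II chain found in nearly all simple epithelia, had 0.62, 3.90, 3.35 and 3.82 in the 5 mM cows, against 3.89, 3.97, 4.16 and 3.56 in the 0 mM cows (chr5:30005397-30005456, plus strand). The group means were 2.92 ± 1.55 at 5 mM and 3.90 ± 0.25 at 0 mM (SD, n = 4 each). A single 5 mM array was low, and the other 3 lay within or just below the range of the 0 mM cows. The difference of -0.98 ± 0.69 (SE) did not pass the test, with an adjusted p of 0.913 in limma with Benjamini-Hochberg adjustment over all 31108 tested probes. Without 5 mM replicate 1 it was -0.21 ± 0.20. In a bulk biopsy, fewer cells of a type and less RNA per cell cannot be told apart, and this holds for each of the genes below.

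On 5 mM replicate 1 the KRT8 signal was 9.69-fold below the median of the other 7 arrays. A second KRT8 probe at chr5:30002293-30002931 had -4.16, -0.77, -1.06 and -0.65 at 5 mM, against -0.56, -0.74, -0.17 and -0.92 at 0 mM. The probe set against KRT75 above had -6.13, -2.32, -2.61 and -2.38 at 5 mM, against -1.82, -2.10, -1.88 and -2.55 at 0 mM. Both were again low on the single array, where they differed from the median of the others by -3.41 and by -3.81. The size of the second is uncertain, because the probe was not well above background there. With the normexp background correction the differences were -2.64 and -1.98. Another KRT8 probe, at chr5:29997842-29997901 and nearest the 5′ end of the gene, did not share the pattern. It had -3.18, -3.96, -3.36 and -3.16 at 5 mM, against -3.07, -3.38, -3.64 and -2.97 at 0 mM, and on 5 mM replicate 1 it was 0.18 above the median of the other 7 arrays. Its sequence is shown beside those of the 2 before it, with CG dinucleotides in capitals, because it also differs from them in composition.
KRT8, 5′-most probe: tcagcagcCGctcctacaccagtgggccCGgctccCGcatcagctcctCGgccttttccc
KRT8, probe set against KRT75: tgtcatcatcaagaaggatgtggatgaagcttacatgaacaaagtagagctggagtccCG
KRT8, second probe: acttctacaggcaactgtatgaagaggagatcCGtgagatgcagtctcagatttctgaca
The 5′-most probe has 4 CG dinucleotides and 68.3% G and C, a share that 0.497% of all noncontrol probes reach, while the other 2 have 1 CG each and 45% G and C. At least 4 CG dinucleotides were found in 4.74% of noncontrol probes. The part of base composition in the difference between these probes was not tested.

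KRT7, the other type II chain of simple and glandular epithelia, was read by 1 probe (chr5:30558808-30558867, minus strand). It had -5.11, -1.92, -1.79 and -2.80 at 5 mM, against -1.07, -0.74, -2.05 and -2.34 at 0 mM. The group means were -2.90 ± 1.54 at 5 mM and -1.55 ± 0.76 at 0 mM (SD, n = 4 each). KRT7 varied more than the other simple-epithelium genes among the 7 other arrays, over a range of 2.06, and the groups overlapped. Its difference was -1.35 ± 0.75 (SE), with an adjusted p of 0.913 in limma with Benjamini-Hochberg adjustment. Without 5 mM replicate 1 the difference was -0.62 ± 0.45, the largest that remained among the 9 genes.

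A probe outside the 9 genes by name shares 52 bases with the KRT7 probe and is described in the array files only through a mouse keratin. It had -4.54, -1.83, -2.53 and -3.79 at 5 mM, against -1.00, -0.38, -1.77 and -2.67 at 0 mM. Both probes were lowest on 5 mM replicate 1 and highest on 0 mM replicate 2. The overlapping probe differed by -1.72 ± 0.69 (SE), with an unadjusted p of 0.0378 and an adjusted p of 0.913 in limma with Benjamini-Hochberg adjustment, and by -1.26 without 5 mM replicate 1. It was looked up because of its sequence overlap and was singled out after its values were seen.

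KRT18, the type I partner of KRT8, lies next to it on chromosome 5, on the opposite strand. Its brightest probe (chr5:29955923-29955981) had -2.34, 2.95, 2.93 and 1.94 at 5 mM, against 2.74, 2.95, 2.20 and 2.23 at 0 mM. The means were 1.37 ± 2.52 at 5 mM and 2.53 ± 0.38 at 0 mM (SD, n = 4 each). On 5 mM replicate 1 the signal was 33.7-fold below the median of the others, while 2 of the other 5 mM cows were at the top of the 0 mM range. The difference of -1.16 ± 1.11 (SE; adjusted p = 0.913, limma with Benjamini-Hochberg adjustment) was 0.08 ± 0.32 without that array.

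The other 2 KRT18 probes gave the same picture. The one at chr5:29956573-29956818 had -3.64, 1.80, 1.86 and 0.95 at 5 mM, against 1.57, 1.81, 1.88 and 1.37 at 0 mM, a drop of 43.5-fold on the single array. The one at chr5:29956921-29957082 had -5.17, 0.46, 0.46 and -0.64 at 5 mM, against 0.18, 0.40, -0.09 and -0.32 at 0 mM, a drop of 40.8-fold. On each of the 3 KRT18 probes, 5 mM replicate 4 was the lowest of the remaining 7 arrays.

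KRT19, a small type I chain of simple and ductal epithelia that lacks most of the usual tail, was read by 2 probes. The brighter (chr19:43089286-43089345, minus strand) had -0.17, 2.34, 2.05 and 2.33 at 5 mM, against 2.16, 2.61, 2.99 and 2.22 at 0 mM. The means were 1.64 ± 1.21 at 5 mM and 2.49 ± 0.38 at 0 mM (SD, n = 4 each). The second probe, shown above beside KRT10 and KRT15, had -1.42, 1.82, 1.24 and 1.57 at 5 mM, against 1.30, 2.19, 2.57 and 1.39 at 0 mM. Both probes were lowest on 5 mM replicate 1, by 5.67-fold and 7.97-fold, a smaller drop than KRT8 or KRT18 had on their brightest probes. The difference was -0.86 ± 0.56 (SE; adjusted p = 0.913, limma with Benjamini-Hochberg adjustment) and -0.25 ± 0.23 without that array.

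EPCAM, which anchors claudin at the lateral membrane of simple epithelia, had the steadiest and the deepest pattern of the 9 genes. Its brighter probe (chr11:30933924-30933983, plus strand) had -1.26, 4.54, 4.82 and 4.58 at 5 mM, against 4.68, 4.83, 4.50 and 4.33 at 0 mM. The means were 3.17 ± 2.96 at 5 mM and 4.59 ± 0.22 at 0 mM (SD, n = 4 each). Over the 7 arrays other than 5 mM replicate 1 its range was 0.49, against a median range of 0.78 over the 13082 tested genes. On 5 mM replicate 1 the signal was 57.4-fold below the median of the others.

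The second EPCAM probe (chr11:30933710-30933769) had -1.82 on 5 mM replicate 1 and at least 3.67 in the other 3 cows at 5 mM, against 3.53 to 3.98 at 0 mM. It repeated the pattern with a 49.9-fold drop and a range of 0.46 elsewhere. The group difference was -1.42 ± 1.29 (SE) on the brighter probe, with an adjusted p of 0.913 in limma with Benjamini-Hochberg adjustment. Without the single array it was 0.06 ± 0.17, so that the 3 remaining 5 mM cows and the 4 cows at 0 mM differed by less than their spread.

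**Figure D1:**
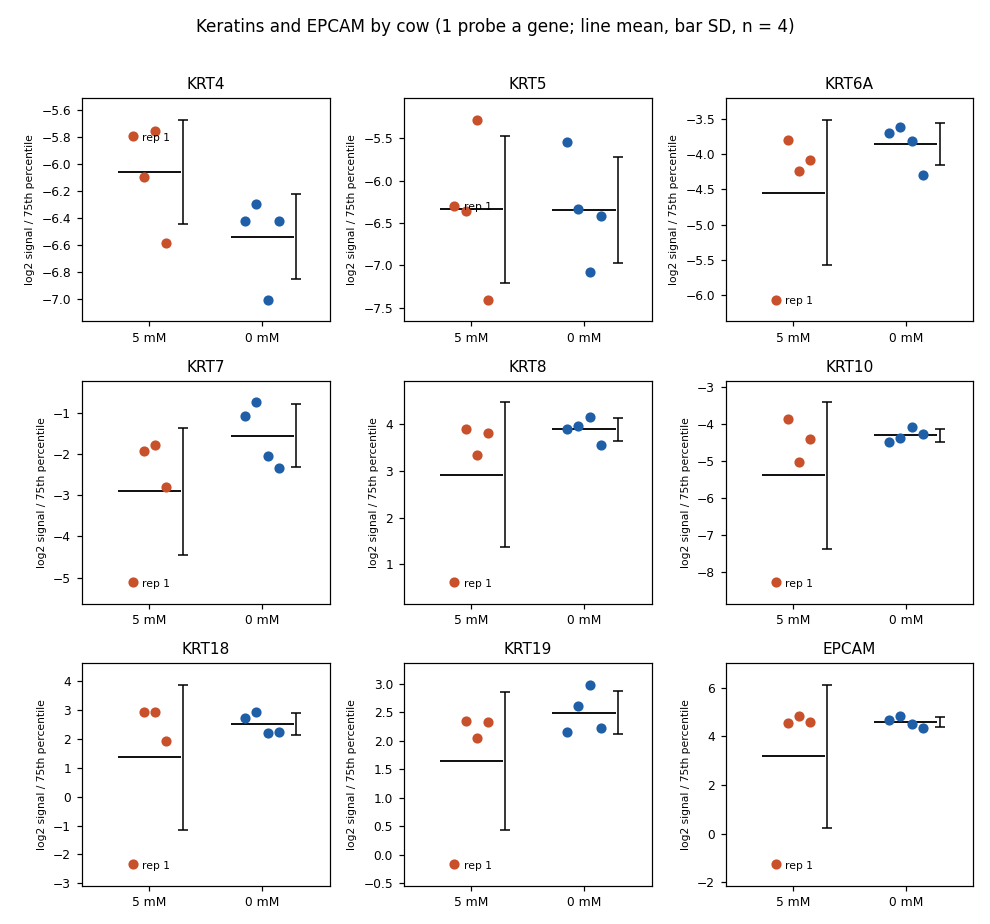
Log2 signal relative to the 75th percentile of the array (vertical axis) for the brightest tested probe of each of the 9 genes, with 1 point per cow, 5 mM on the left and 0 mM on the right, a line for the group mean and a bar for the SD (n = 4 each). For 7 genes the point of 5 mM replicate 1 lies below all other points, while KRT4 and KRT5 show no such gap.

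**Figure D2:**
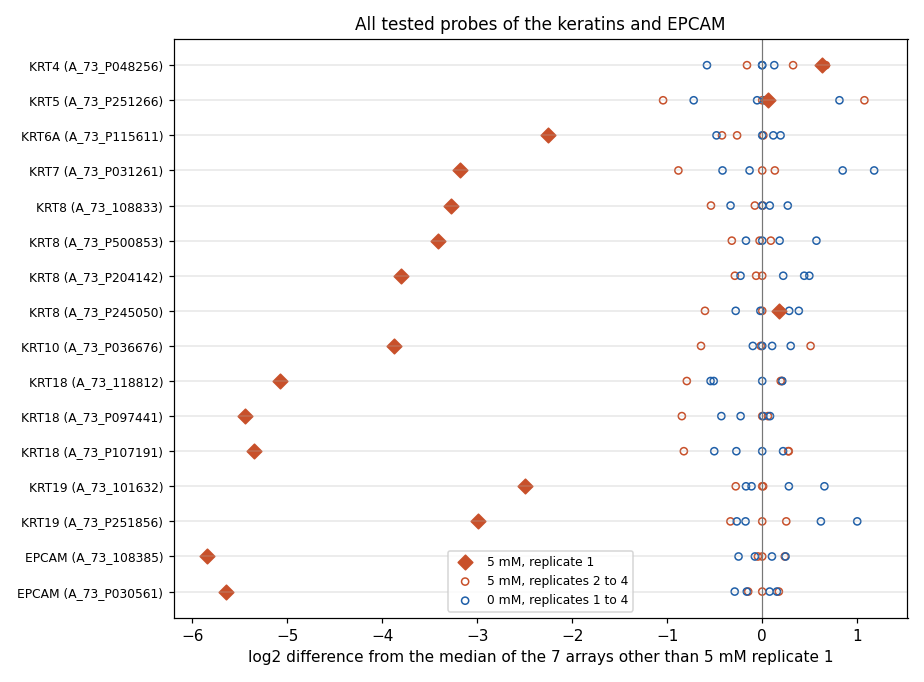
Log2 difference of each array from the median of the 7 arrays other than 5 mM replicate 1 (horizontal axis), for the 16 tested probes, with that array as a diamond and the others as open circles. On 13 probes the diamond lies more than 2-fold to the left, and the 5′-most probe of KRT8 and the probes of KRT4 and KRT5 are the exceptions.

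The stratified-epithelium keratins were faint, and 2 of the 4 followed the same array. KRT6A had -6.07, -3.80, -4.24 and -4.08 at 5 mM, against -3.70, -3.62, -3.81 and -4.30 at 0 mM (chr5:30284080-30284139, plus strand). It was not well above background on 5 mM replicate 1, so the size of its drop there is uncertain. The signal was 4.77-fold below the median of the others, and 1.84-fold with the normexp background correction. The KRT6A probe holds 2 CG dinucleotides, in capitals here, and no 15-base run of it recurs in a probe of another gene.
KRT6A: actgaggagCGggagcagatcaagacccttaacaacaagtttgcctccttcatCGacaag
Its difference was -0.69 ± 0.48 (SE; adjusted p = 0.913, limma with Benjamini-Hochberg adjustment) and -0.18 ± 0.21 without that array. The other 2 KRT6A probes were well above background on 0 arrays.

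KRT10, the type I chain of the upper layers of skin, had -8.27, -3.88, -5.03 and -4.40 at 5 mM, against -4.49, -4.39, -4.09 and -4.28 at 0 mM. On 5 mM replicate 1 it was not well above background, so the size of its drop there is uncertain. The drop was 3.54-fold down to the lowest signal well above background on that array, and 1.66-fold with normexp. The difference was -1.08 ± 0.86 (SE; adjusted p = 0.913, limma with Benjamini-Hochberg adjustment) and -0.13 ± 0.27 without that array. With the normexp background correction the KRT10 difference was -0.18 and the KRT6A difference -0.23, so the size of both depended on how faint signals were corrected. The KRT10 probe is the one that matches KRT19 at 31 of 44 bases, as printed above. Of the 3 probes the array files name KRT10, 2 carry an accession that now belongs to KRT28, and neither was well above background on any array.

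KRT4, a type II chain of moist stratified mucosae, went the other way. It had -5.79, -6.10, -5.76 and -6.59 at 5 mM, against -6.42, -6.30, -7.01 and -6.43 at 0 mM, and was well above background in 3 of 4 cows at 5 mM and 3 of 4 at 0 mM. The difference was 0.48 ± 0.24 (SE), with an unadjusted p of 0.0826 and an adjusted p of 0.913 in limma with Benjamini-Hochberg adjustment, and 0.39 ± 0.25 without 5 mM replicate 1. The groups overlapped, and at this brightness the order of single cows has little weight. KRT5, the basal-layer type II chain, had -6.30, -6.36, -5.29 and -7.41 at 5 mM, against -5.55, -6.33, -7.08 and -6.42 at 0 mM. It was well above background in 1 of 4 cows at 5 mM and in 3 of 4 at 0 mM. Its difference of 0.01 ± 0.48 (SE) had an adjusted p of 0.998 in limma with Benjamini-Hochberg adjustment. Without 5 mM replicate 1 it was -0.0059, and its sign changed with the setting.

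Over the 9 genes, 7 were lower at 5 mM and 2 were higher, with a median difference of -0.98, against 0.01 over all 13082 tested genes, of which 48.4% were lower. Of the 16 tested probes 14 were lower, against 46.9% of all tested probes. The number past an adjusted p of 0.05 was 0 of 16, against 0 of 31108 (0%). At an unadjusted p under 0.05 in limma it was also 0 of 16, against 595 tested probes (1.91%), and 0 of the 16 had groups that did not overlap, against 1.54%. A tested probe had to be above background on 4 arrays only, so these counts leave out the 7 faint probes.

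The single array carried most of these differences. On 5 mM replicate 1, 13 of the 16 probes were at least 2-fold below the median of the other 7 arrays, against 15.8% of all tested probes. At least 8-fold below were 10 of 16, against 4.11%, and below all 7 others were 13 of 16, against 28.1%. The median over the 9 genes was -3.19 there, against 0.03 over all tested genes. These counts and medians use the signals as measured, for the members and for all tested probes or genes alike. The 10 include KRT10 and the KRT8 probe set against KRT75, neither of them well above background on 5 mM replicate 1. Down to the lowest signal well above background there, the drop of KRT10 was 3.54-fold. Without that array 6 of the 9 genes and 11 of the 16 probes were lower at 5 mM, against 47% of tested probes. The median difference was then -0.13, against 0.01 over all tested genes. An unadjusted p under 0.05 was then reached by 0 of the 16 probes, against 1.94%. These counts describe an array chosen for its values and carry no test.

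The size of the drop on 5 mM replicate 1 was nearly the same under each scaling of the arrays. For EPCAM it was -5.84 with the 75th percentile, -5.89 with quantile normalization, -5.74 with a median shift and -5.84 in the authors' deposited table. For KRT7 it was -3.19, -3.04, -3.03 and -3.19 in the same order. The deposited table follows the 75th-percentile shift closely, so its values are not a further scaling. With normexp the drop was -5.68 for EPCAM and -2.08 for KRT7, so that the dimmer gene lost more of its drop with that background correction.

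**Figure D3:**
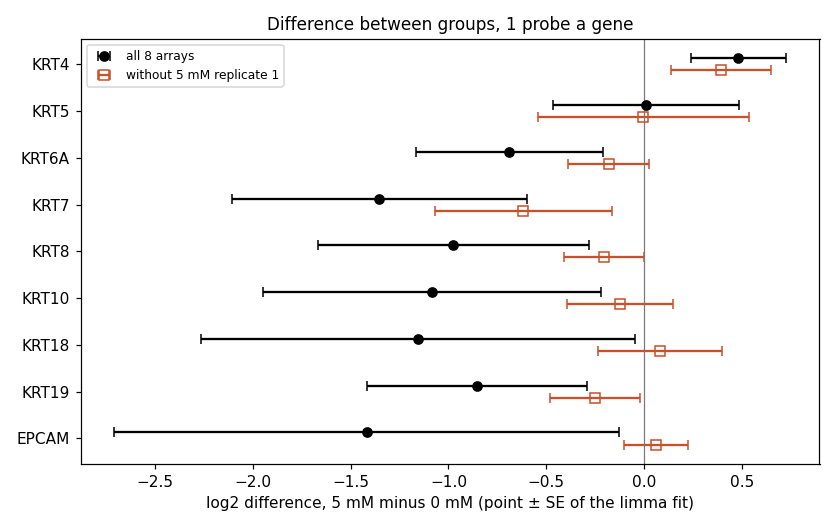
Log2 difference, 5 mM minus 0 mM (horizontal axis), with the SE of the limma fit, for the brightest probe of each gene, from all 8 arrays (filled circles) and without 5 mM replicate 1 (open squares). Without that array KRT8, KRT18, KRT19 and EPCAM lie between -0.25 and 0.08, and KRT7 keeps the largest negative value at -0.62.

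The arrays sat on 3 slides, and the slide that held 5 mM replicate 1 held only 0 mM replicate 1 beside it. Within that slide the difference between the 2 cows was -5.94 for EPCAM, -5.08 for KRT18, -4.03 for KRT7, -3.28 for KRT8 and -2.33 for KRT19. Within the second slide, with 1 cow at 5 mM and 2 at 0 mM, the same genes gave -0.13, 0.37, -0.52, -0.17 and -0.46. Within the third, with 2 cows at 5 mM and 1 at 0 mM, they gave 0.37, 0.21, 0.04, 0.02 and -0.03. The large differences were seen only within the slide that held 5 mM replicate 1. They reflect the low values of that array again and are no separate finding about slides. With slide as a block the values were -1.53 for EPCAM, -1.17 for KRT18, -1.27 for KRT7, -0.95 for KRT8 and -0.81 for KRT19.

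Desmosome and hemidesmosome genes, which tie keratin filaments to the membrane, were read next. Of 13 tested genes 10 were lower at 5 mM and 3 were higher, 0 passed the test, and the median difference was -0.66 with all arrays and -0.04 without 5 mM replicate 1. The desmosomal cadherin DSG2 had -4.18, 2.46, 1.83 and 1.78 at 5 mM, against 2.01, 2.30, 1.88 and 1.22 at 0 mM, a 66.9-fold drop on the single array. The cadherin DSC2 was 6.32-fold below the median of the others there and the plakin PPL 3.91-fold. The differences between the groups were -0.92 for DSC2 and -0.63 for PPL, and -0.28 and -0.22 without that array. DSG2 was named after its values were seen.

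The proteins that link these cadherins to the filaments were not uniform. The plakophilins PKP1 and PKP2 were lowest on 5 mM replicate 1, 5.03-fold and 3.78-fold below the median of the others, and PKP3 was lowest there too, not well above background. Desmoplakin (DSP), which binds the filaments themselves, had 2.79, 2.27, 2.42 and 2.28 at 5 mM, against 1.92, 2.32, 2.41 and 2.38 at 0 mM. Plakoglobin (JUP), which also serves adherens junctions, had 3.72, 3.98, 3.83 and 3.82 at 5 mM, against 3.71, 3.88, 3.87 and 3.96 at 0 mM. On 5 mM replicate 1 DSP was the highest of the 8 arrays, and JUP lay within the range of the others. A further plakophilin, PKP4, differed by 0.27 ± 0.17 (SE; adjusted p = 0.913, limma with Benjamini-Hochberg adjustment) and by 0.21 without that array. DSP, JUP and the first 3 plakophilins too were named after their values were seen.

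Among genes linked to EPCAM at the membrane, 8 of 13 tested genes were lower at 5 mM, 5 were higher and 0 passed the test. Their median difference was -0.18 with all arrays and -0.06 without 5 mM replicate 1. CLDN7, the claudin that EPCAM holds, had -0.72, 1.63, 0.87 and 1.68 at 5 mM, against 0.52, 2.35, 1.97 and 1.88 at 0 mM. It too was lower on 5 mM replicate 1 than on any other array. SPINT1, a protease inhibitor of epithelial membranes, differed by -1.51, and by -0.23 without 5 mM replicate 1, where it was not well above background.

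Of the other keratins 37 were on the array and 12 were tested. At 5 mM 8 of the 12 were lower and 4 higher, 0 passed the test, and the median difference was -0.20 with all arrays and -0.03 without 5 mM replicate 1. That array was the lowest of 8 for 4 of them and the highest for 4. KRT15, a type I chain of basal cells, differed from the median of the other arrays there by -2.52, and KRT24, another type I chain, by -3.70. The differences between the groups were -0.64 for KRT15 and -0.92 for KRT24, and -0.03 and 0.01 without that array. KRT83, a hair keratin, differed by -0.33 ± 0.20 (SE; adjusted p = 0.913, limma with Benjamini-Hochberg adjustment) and by -0.27 without that array. KRT80, chosen here after its values were seen, had -1.01, -3.43, -1.73 and -3.67 at 5 mM, against -1.97, -2.74, -3.25 and -4.21 at 0 mM, and was highest on 5 mM replicate 1.

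Intermediate filament genes other than keratins ran differently. Of 13 tested, 5 were lower and 8 higher at 5 mM, 0 passed the test, and the median difference was 0.05 with all arrays and -0.0068 without 5 mM replicate 1. Vimentin (VIM), the filament protein of stroma and vessels, had 5.69, 5.24, 5.19 and 5.19 at 5 mM, against 5.15, 5.33, 5.37 and 5.35 at 0 mM. Synemin (SYNM), a partner of desmin in muscle, had 3.21, -1.32, 1.63 and -1.15 at 5 mM, against 0.56, -1.46, -1.51 and -1.30 at 0 mM. Desmin (DES) had 4.95, 1.11, 4.13 and 1.58 at 5 mM, against 3.84, 0.44, 1.49 and 1.51 at 0 mM. All 3 were highest on 5 mM replicate 1, where 7 of the 9 keratin and EPCAM genes were lowest. Without that array SYNM differed by 0.65 and DES by 0.45, against 1.52 and 1.12 with it, and SYNC, another muscle filament protein, by 0.49, against 1.00 with it.

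Marker lists of the cell types in a biopsy were set beside the 9 genes as the mean of their centred log2 levels on each array. The 9 genes had -2.45, 0.48, 0.41 and 0.00 at 5 mM, against 0.54, 0.62, 0.27 and 0.13 at 0 mM. The luminal and glandular list had -3.13, 0.55, 0.18 and 0.47 at 5 mM, against 0.30, 0.66, 0.55 and 0.42 at 0 mM. Epithelial markers thus lay low on the same array as the keratins, and CDH1, the epithelial cadherin, was 18.9-fold below the median of the other arrays there. Of its 20 tested genes 19 were lower at 5 mM, with a median of -1.16, against -0.11 without that array. Its lowest p-values belonged to LAD1, an anchoring filament protein, to SFN and to EHF, an epithelial transcription factor. LAD1 differed by -0.68, and by -0.32 without that array. EHF was not well above background on that array and differed by -0.49 without it. SFN, the epithelial protein stratifin, had 4.54, 4.60, 4.22 and 4.64 at 5 mM, against 3.97, 3.45, 4.45 and 4.28 at 0 mM, and was not low on the single array. Some signals in these means were not well above background on that array, so the size of the means there is uncertain. They include KRT10 among the 9 genes, and CLDN3, GRHL2, MARVELD3 and EHF in the luminal and glandular list.

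The ciliated list had -2.40, 0.40, -0.53 and 0.38 at 5 mM, against 0.84, 0.71, 0.34 and 0.25 at 0 mM. All 10 of its tested genes were lower at 5 mM, with a median of -0.96 and of -0.40 without 5 mM replicate 1, and 0 passed the test. TEKT2, a microtubule protein of cilia, differed by -1.13, and by -0.77 without that array. CCDC40, which positions the inner dynein arms, differed by -1.41, and by -1.18 without it. The calcium-binding CAPS differed by -0.71, and by -0.42 without it. TEKT2 alone of the 10 had an unadjusted p under 0.05 in limma, at 0.0474. On this list 5 mM replicate 3 was low as well. On 5 mM replicate 1 FOXJ1, DNAI1, DNAI2, RSPH1, TEKT1 and SPAG6 lay below -6.21, the lowest signal well above background there. The size of the list mean on that array is therefore uncertain.

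The smooth muscle list had 2.54, -1.31, 1.57 and -0.86 at 5 mM, against 1.24, -1.66, -1.01 and -0.84 at 0 mM. Muscle markers were therefore highest on 5 mM replicate 1, but 5 mM replicate 3 and 0 mM replicate 1 were high in them too, with keratin and EPCAM means of 0.41 and 0.54. Of its 12 tested genes 11 were higher at 5 mM and 0 passed the test, with a median of 1.09 and of 0.36 without 5 mM replicate 1. The kinase MYLK differed by 0.76 and phospholamban (PLN) by 1.45, and without that array by 0.62 and 0.82. The part of muscle in the keratin and EPCAM values was not tested.

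The fibroblast list had 0.72, -0.10, -0.07 and -0.23 at 5 mM, against -0.02, -0.42, 0.00 and 0.08 at 0 mM, and 7 of its 11 genes were highest on 5 mM replicate 1. Of the 11, 5 were lower and 6 higher at 5 mM, with a median of 0.05 and of -0.06 without that array. PDGFRA differed by 0.65 with that array and 0.13 without it, DPT by 1.59 and 0.87, and HAND2, a stromal transcription factor of the uterus, by -0.73 and -0.83. The leukocyte list ran from -0.57 to -0.10 at 5 mM, against -0.13 to 0.61 at 0 mM, with 9 of 10 genes lower and a median of -0.52, and of -0.43 without 5 mM replicate 1. Its leading genes LCP1, CD3G and CD3E differed by -1.03, -1.01 and -0.86, and by -0.76, -0.65 and -0.51 without that array. The endothelial list ran from -0.35 to 0.19 at 5 mM, against -0.34 to 0.26 at 0 mM, with 5 of 9 genes lower and a median of -0.24, and of -0.06 without 5 mM replicate 1. PECAM1, TEK and CLDN5 led it with 0.41, -0.43 and 0.38, and with 0.41, -0.21 and 0.34 without that array. In these 3 lists 0 genes passed the test.

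The stratified squamous list had 5 tested genes, of which 3 were lower and 2 higher at 5 mM, with a median of -0.18 and of -0.12 without 5 mM replicate 1. Its means ran from -0.51 to 0.56 at 5 mM, against -0.27 to 0.32 at 0 mM. The basal-cell factor TP63 and the desmosomal cadherin DSG3, both defining markers of stratified epithelium, were well above background on 0 arrays. KRT14, the partner of KRT5, differed by -0.18 and TGM3, a cross-linking enzyme of skin, by -1.00, and without 5 mM replicate 1 by -0.15 and -1.37. Other genes of this list were detected: KRT14, KRT15 and IVL were well above background in 4 of 4 cows of each group. For TGM3 and CSTA it was 3 of 4 in each group. The brightest probes of KRT7, KRT8, KRT18 and KRT19 were well above background on all 8 arrays.

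**Figure D4:**
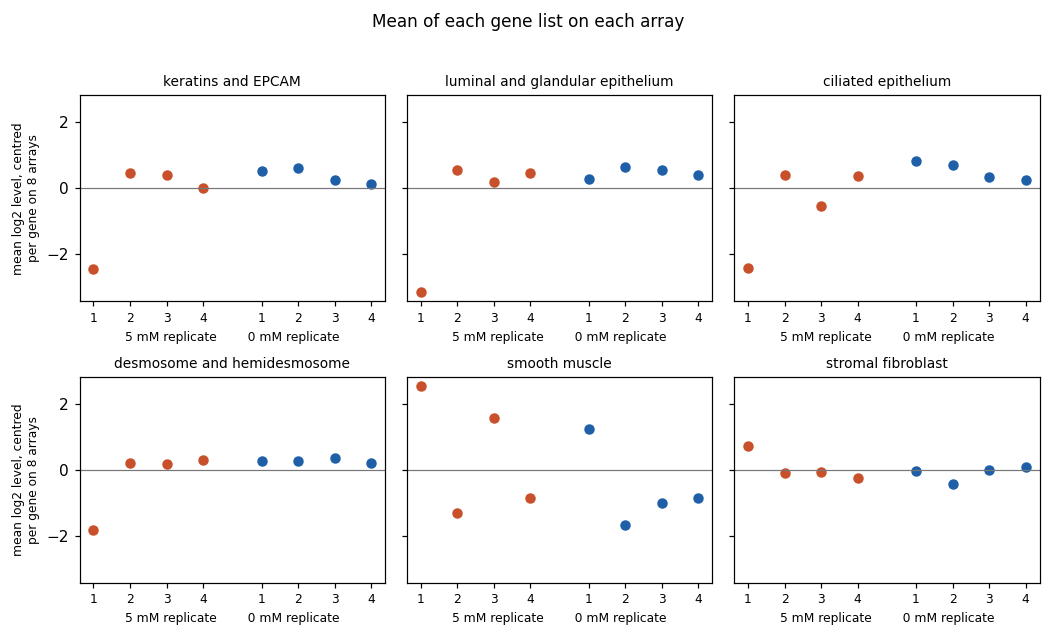
Mean log2 level of each gene list on each array, with every gene centred on its mean over the 8 arrays (vertical axis), for 5 mM replicates 1 to 4 on the left and 0 mM replicates 1 to 4 on the right of each panel. The keratins and EPCAM (-2.45) and the luminal and glandular list (-3.13) are low on 5 mM replicate 1, where the smooth muscle list (2.54) is high.

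The pattern of KRT7, KRT8, KRT18, KRT19 and EPCAM was summarised as the mean of their centred levels, which was -3.47, 0.55, 0.46 and 0.16 at 5 mM, against 0.67, 0.91, 0.54 and 0.19 at 0 mM. The nearest genes by root mean square difference over the 8 arrays, among 12409 genes with a symbol and full values, were IQGAP2 (0.09), SALL1 (0.15), GRP (0.20), COMP (0.20), MFSD6L (0.21), LSR (0.21), CAMSAP3 (0.22), NKPD1 (0.22), CITED4 (0.22) and C3H1orf210 (0.22). The median over all ranked genes was 1.37. Among the 9 genes themselves the distance was smallest for KRT8 (0.35), KRT10 (0.38) and KRT18 (0.40), and largest for KRT5 (1.46) and KRT4 (1.55). KRT8 and KRT18 are part of the mean they are compared with, whereas KRT10, KRT5 and KRT4 are not. The order among the 9 genes is therefore partly set by how the mean was built. The lowest signal well above background on 5 mM replicate 1 was -6.21. COMP (-8.23), CAMSAP3 (-7.97) and KRT10 (-8.27) lay below it there, so their distances rest partly on signal at background.

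GRP encodes gastrin-releasing peptide and LSR a receptor of tricellular junctions. GRP had 0.61 on 5 mM replicate 1, against 4.61 to 5.29 elsewhere. IQGAP2, a scaffold protein of the cell cortex, had -0.94 on that array, against 2.81 to 3.43 elsewhere. Likeness here rested mainly on the single array. Without it, 3 of the 10 (IQGAP2, GRP and SALL1) were among the nearest 100 genes.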

How the data were processed

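The deposited values are spot intensities on a linear scale, background-subtracted and detrended with no step that scales arrays to each other, per the file headers. These headers name Feature Extraction 11.5.1.1, whereas the submitters' processing notes name version 10.5.1.1. The authors' deposited value table holds log2 values. Its columns correlated at 0.9995 or more across probes with 75th-percentile-shifted log2 intensities after each probe was centred on its 8-array median, which settles scale, centring and direction. At 5 mM the medians of its 4 columns were 0.13, -0.0049, -0.011 and 0.013, and at 0 mM they were -0.016, -0.023, 0.00088 and -0.0062. It served only as an alternative.

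Control spots and outlier-marked spots were left out, spots of a probe were averaged as log2, and the array's 75th percentile was subtracted. Groups were compared with limma 3.58.1 in R 4.3.3 (lmFit, eBayes), with Benjamini-Hochberg adjustment over 31108 probes, after a check on simulated data. Of several probes of a gene the brightest was taken. Symbols were brought up to date through RefSeq genes of ARS-UCD2.0. Of the 43653 probes 22205 matched by accession, 11018 by name and 372 by synonym, 1384 kept the file's name and 8674 had none. Where a probe was below background, its fold drop used the higher of its signal and the lowest signal well above background on that array. This is not a strict bound, because KRT6A lay above that level and still was not well above background. The counts of probes by fold drop used the signal as measured. Named are the 9 genes, the 3 lowest p-values of each list and the 10 nearest profiles. The result of 1 gene so named is not reported here. The labels give every sample its own cow. The members and lists were chosen with earlier results of these data known. Alternatives were other scalings, normexp, filters, variance models, slide or replicate blocks, the deposited table, the mean over probes and leaving out each cow.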

Additional observations from a re-analysis of the deposited data

Results flagged for a closer look

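Each group of 4 arrays was checked for a sample far from the other 3, over the 16 tested probes and the 12 list means, which made 56 groups. A gap this wide arises by chance in about 1 group in 20, and 12 of the 56 showed one, all on 5 mM replicate 1. Probes and lists share the arrays, so these are not independent. Of the 32 groups from single probes 7 were marked. KRT8 was lowest on that array on 3 probes, at 0.62, -4.16 and -6.13. KRT18 was marked on 1 of its 3 probes, at -3.64, and KRT19 on 1 of its 2, at -0.17. EPCAM was marked on both probes, at -1.26 and -1.82. Among list means, the keratins and EPCAM (-2.45), desmosome genes (-1.81), EPCAM partners (-1.21) and luminal and glandular markers (-3.13) were lowest there, and fibroblast markers (0.72) were highest.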

How the results depend on the processing

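The count of probes past an adjusted p of 0.05 was 0 under every setting run. The count of the 9 genes lower at 5 mM was 6 to 8 except within slide 2, where it was 5, and slide 3, where it was 2. The median difference was -0.22 with array weights, -3.28 in slide 1 alone, -0.085 in slide 2 and 0.070 in slide 3. Leaving out 1 cow at a time gave a median between -1.30 and -0.13, the smallest without 5 mM replicate 1. It gave differences between -1.68 and 0.080 for KRT18, between -1.97 and 0.059 for EPCAM and between -0.34 and 0.36 for KRT5. The sign of KRT18 and EPCAM turned without 5 mM replicate 1 only. That of KRT5 turned without that cow (-0.0059), 5 mM replicate 3 (-0.34), 0 mM replicate 3 (-0.24) or 0 mM replicate 4 (-0.016). It also turned with array weights (-0.052), a slide block (-0.053) and within slide 1 (-0.75). Within slide 2 KRT10 (0.36) and KRT18 (0.37) turned, and within slide 3 KRT6A (0.14), KRT7 (0.043), KRT8 (0.025), KRT18 (0.21) and EPCAM (0.37). Probes at an unadjusted p under 0.05 numbered 595 with the settings of the report, 1067 with no filter and 1026 with a slide block. Leaving out 5 mM replicate 2, 3 or 4 gave 1528, 376 or 1065. The cause of these shifts was not tested. The filter on all 8 arrays left 5 of the 9 genes. With the replicate block the count was 1221 at an unadjusted p and 0 adjusted. Same-numbered cows correlated at 0.403, 0.355, -0.302 and 0.306. For 5 mM replicates 1, 2 and 4 the same-numbered 0 mM cow was the best match, and each shared a slide with its match. The exception was 5 mM replicate 3, which correlated best with 0 mM replicate 1. The labels give every sample its own cow, and the numbers were not taken as pairs. Closeness to background limits KRT4, KRT5, KRT6A and KRT10.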
